A study of Homo sapiens with 2 samples.

Results

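Gene expression of the Notch receptors NOTCH1, NOTCH2, NOTCH3 and NOTCH4, the ligands DLL1, DLL3, DLL4, JAG1 and JAG2 and the target gene HES1 was examined in SBC-3 cells, an adherent small-cell lung cancer (SCLC) line. These 10 genes were chosen by name, among 19061 genes named on the array, and not by their signals. Earlier results of these data were known at that choice. Cells were transfected with #1 siHOTAIR, a small interfering RNA against the long noncoding RNA HOTAIR, or with siGFP, the control siRNA, whose target is green fluorescent protein. RNA of each transfection, 0.05 µg, was labelled with Cy3 and hybridized to a one-colour Agilent array, with 1 array for each condition. The time after transfection is not given for these arrays, and only the first of the siRNAs against HOTAIR was used. Array, culture and siRNA cannot be told apart in this design, no P-value was computed, and in bulk RNA fewer expressing cells and less RNA per cell cannot be told apart.

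Notch receptors sit in the cell membrane and are activated by ligands of the Delta-like and Jagged families on neighbouring cells. Binding leads to cleavage of the receptor by ADAM proteases and the gamma-secretase complex, and the freed intracellular domain enters the nucleus and joins the DNA-binding protein RBPJ and a MAML coactivator to switch on genes such as HES1 and HEY1. In SCLC, Notch activity is known to oppose the neuroendocrine state. DLL3 differs from the other Delta-like ligands in that it is found mostly inside the cell, where it inhibits Notch, and it is also known as a surface target in SCLC.

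NOTCH3 was the one gene of the 10 whose signal differed at least 2-fold between the arrays. It was 2.05-fold higher in #1 siHOTAIR-transfected cells, a log2 ratio of 1.03 with a measurement SD of 0.07. By their brightest probes the other receptors and ligands above background lay between -0.23 for JAG2 and 0.27 for NOTCH2 on the log2 scale, and HES1 had a ratio of 0.07. DLL4 was not well above background on either array. Read from their brightest probes, none of the other genes of the pathway reached 2-fold, and the largest rise was that of the Notch target HEY1, with a log2 ratio of 0.84.

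The proximal promoters of NOTCH3, the gene that differed most, and of HES1, the textbook target, are shown with matches to short pathway motifs. Each run holds the 250 bases before the start of the gene, on the strand of the gene, from RefSeq on GRCh38.p14. Capitals mark the letters TGGGAA, the core of the RBPJ (CSL) site, and CACGAG, a form of the N box bound by HES proteins. Other forms of the N box were not searched, and binding at any match was not tested.
NOTCH3, chr19:15200996-15201245, minus strand: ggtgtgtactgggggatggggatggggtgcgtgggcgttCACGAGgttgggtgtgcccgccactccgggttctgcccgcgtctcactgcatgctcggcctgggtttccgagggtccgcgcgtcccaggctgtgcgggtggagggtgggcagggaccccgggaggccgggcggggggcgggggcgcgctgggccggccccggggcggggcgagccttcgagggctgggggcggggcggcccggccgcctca
HES1, chr3:194135898-194136147, plus strand: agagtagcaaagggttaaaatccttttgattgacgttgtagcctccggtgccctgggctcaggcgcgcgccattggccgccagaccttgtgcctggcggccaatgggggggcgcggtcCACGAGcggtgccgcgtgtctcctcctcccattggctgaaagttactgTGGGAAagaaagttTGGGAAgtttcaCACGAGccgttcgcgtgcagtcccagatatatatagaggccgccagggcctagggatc
In HES1, TGGGAA begins 84 and 70 bases before the start of the gene and CACGAG begins 132 and 58 bases before it. In NOTCH3, CACGAG begins 211 bases before the start and TGGGAA was not found in this window. Searched on both strands (TTCCCA and CTCGTG on the other), TGGGAA was present in 20.8% and CACGAG in 5.58% of 35116 windows of this length, and at least 2 copies were present in 2.90% and 0.208%. The letters of the pair do not overlap. Promoters were matched for 8 of the 10 genes, all but DLL1 and DLL3. In the 6 not shown (NOTCH1, NOTCH2, NOTCH4, DLL4, JAG1 and JAG2) neither TGGGAA nor CACGAG was found.

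The scanner output gives each spot a processed signal, an intensity from which background was subtracted and slide-wide trends were removed. The 75th percentile of this signal was 650.3 for #1 siHOTAIR and 629.9 for siGFP, and each log2 signal was set against it. A probe was called well above background where at least 50% of its spots were, and the 24117 of 42402 probes that met this on 1 array or both were compared. HOTAIR itself, read from 1 spot, had a signal of 108 with #1 siHOTAIR and 244 with siGFP, a log2 ratio of -1.22 with a measurement SD of 0.21. The measurement SD comes from repeated spots of probes with 10 spots at the same level of signal and covers error within an array, not the difference between cultures. With 1 array a condition, their number sets the limit of precision. Probes differ in brightness, so signals are compared between the arrays and not between genes.

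The 10 genes were matched by 12 probes with 38 spots, none marked as an outlier on either array. NOTCH1 and NOTCH2 had a pair of probes each and the others 1. On both arrays 11 of the 12 probes, for 9 of the 10 genes, stood well above background. Of the 11, 1 probe was at least 2-fold higher with #1 siHOTAIR, where 3.3% of all compared probes were, and 0 were at least 2-fold lower, where 4.1% were. Of the 9 genes, each read from its brightest probe, 6 were higher and 3 lower, with a median log2 ratio of 0.07 against 0.02 over all 13014 compared genes.

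**Figure D1:**
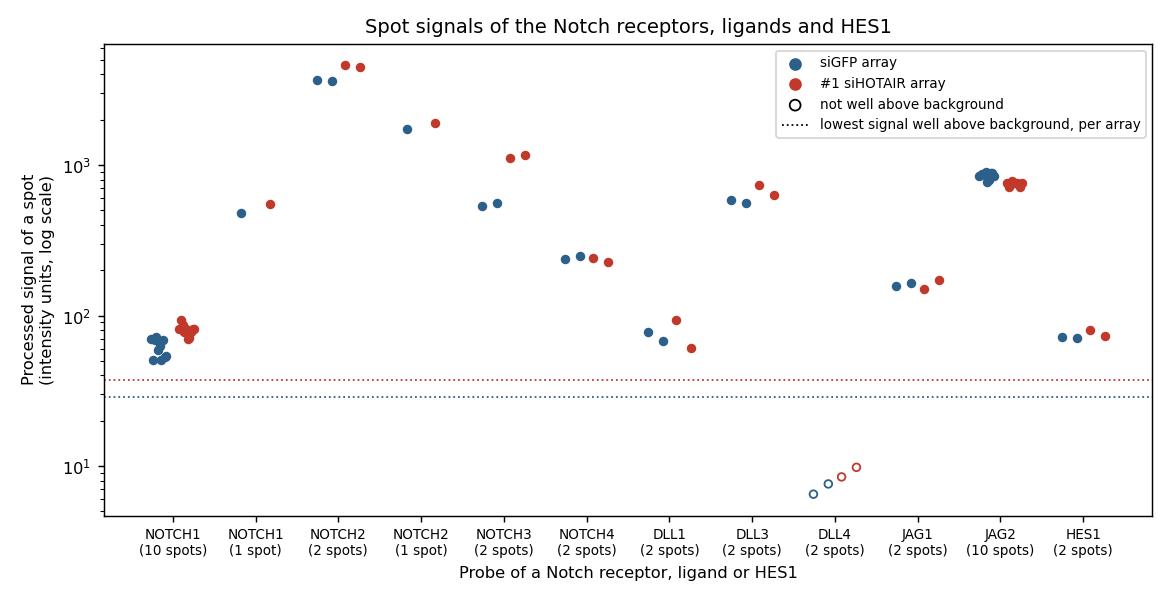
Processed signal of every spot on a log axis, for the 12 probes of the Notch receptors, ligands and HES1 in siGFP-transfected (blue) and #1 siHOTAIR-transfected (red) cells, with 1 array each. Open circles are spots not well above background, and dotted lines give the lowest signal well above background on each array, 37.3 with #1 siHOTAIR and 28.6 with siGFP. NOTCH3 is the probe whose spots separate most, while both DLL4 pairs lie under the lines.

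NOTCH3, a receptor known from vascular smooth muscle cells and also expressed in tumours, was read from 1 probe with 2 spots. In #1 siHOTAIR-transfected cells its spots had signals of 1119.9 and 1174, and in siGFP-transfected cells 531 and 555. The spots of both arrays did not overlap. Spot by spot the log2 ratio was 1.03 and 1.03, although the spots lie far apart, in rows 22 and 373 of the 384 rows of the array. The mean ratio was 1.03, with a measurement SD of 0.07 from repeated spots and of 0.15 from the error that the scanner software gives. This stands just past the 2-fold line, a log2 ratio of 1. Among 2746 probes above background on both arrays and within 0.5 log2 units of the mean signal of NOTCH3, 1.2% were at least 2-fold higher and 1.13% had a ratio as high as that of NOTCH3 or higher. Without background correction the ratio was 0.85, and with normexp correction it was 0.87, both under 2-fold, whereas when scaled to spike-in RNA it was 1.17.

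Markers of fibroblasts, another cell type that expresses NOTCH3, were read beside it. COL1A1 was higher, with signals of 831 and 833 against 387 and 444, a log2 ratio of 0.96, while COL1A2 had a ratio of -0.04 from 10 spots. The other 3 of the 5 markers, COL3A1, DCN and LUM, were not well above background on either array. The summed signal of the 5 markers was 4619.7 and 4177, and their part in the ratio of NOTCH3 was not tested.

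NOTCH1, the receptor first known from T-cell leukaemia, had a pair of probes. On the dimmer one, with 10 spots, signals ran from 69.3 to 93.2 with a median of 81.0 in #1 siHOTAIR-transfected cells, and from 50.5 to 72.2 with a median of 60.8 in siGFP-transfected cells. All 10 spots were higher with #1 siHOTAIR than at the same place on the siGFP array, by 0.07 to 0.84 on the log2 scale, although the ranges of both arrays overlap. The mean log2 ratio was 0.36 with a measurement SD of 0.09. The brighter probe, with 1 spot, had signals of 549 and 484 and a log2 ratio of 0.14 with a measurement SD of 0.11, so the probes share the direction and differ in size.

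NOTCH2, the receptor of the Alagille syndrome and marginal zone B cells, was brighter with #1 siHOTAIR on both of its probes. Its brighter probe had 2 spots, with signals of 4594 and 4495 against 3703 and 3612, a log2 ratio of 0.27 with a measurement SD of 0.06, and the spots of both arrays did not overlap. The probe with 1 spot had signals of 1910.1 and 1740.3 and a log2 ratio of 0.09 with a measurement SD of 0.09. The genome holds partial copies of NOTCH2 (the NOTCH2NL genes), and whether these probes also bind their transcripts was not tested.

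NOTCH4, a receptor of endothelial cells, had 2 spots with signals of 243 and 227 against 237 and 249.98. The spots of both arrays overlap, and the log2 ratio was -0.10 with a measurement SD of 0.11. When scaled to spike-in RNA this ratio changed its sign, to 0.04.

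Among the ligands, DLL3 was read from 2 spots, with signals of 732 and 629 in #1 siHOTAIR-transfected cells and of 582 and 558 in siGFP-transfected cells. Both spots were higher with #1 siHOTAIR, by 0.29 and 0.13 on the log2 scale, and did not overlap with those of siGFP. The mean log2 ratio was 0.21, a 1.15-fold difference, with a measurement SD of 0.08. Of the 2848 probes at this level of signal, the central 80% ran from -0.43 to 0.47, so DLL3 lay well inside them.

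JAG2, a Jagged ligand, was read from 10 spots and was lower in all of them. Signals ran from 715 to 778 with a median of 755 in #1 siHOTAIR-transfected cells and from 773 to 905 with a median of 861 in siGFP-transfected cells. The ranges overlap only at their ends, between 773 and 778. The mean log2 ratio was -0.23 with a measurement SD of 0.04, which makes JAG2 14.7% lower, and it was -0.09 when scaled to spike-in RNA.

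JAG1, the ligand of the Alagille syndrome, had signals of 149 and 172 against 158 and 164. The spots of both arrays overlap, and the log2 ratio of -0.05 was within its measurement SD of 0.15 and turned to 0.08 when scaled to spike-in RNA. DLL1, a Delta-like ligand of early development, had signals of 93.6 and 61.1 against 77.8 and 68.0, with a log2 ratio of 0.01 and a measurement SD of 0.20. Its spots disagree in direction, at 0.22 and -0.20, and its sign turned under scaling to the median of detected probes, under quantile normalization and without background correction. DLL4, a ligand of the vascular endothelium, had signals of 8.46 and 9.80 against 6.50 and 7.60, near the medians of 9.34 and 7.32 of the 18285 probes that neither array detected, and a fold change is not given.

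HES1, the transcriptional repressor downstream of Notch whose promoter is shown above, gave 80.3 and 73.6 with #1 siHOTAIR and 71.5 and 70.8 with siGFP. Both spots were slightly higher with #1 siHOTAIR, by 0.12 and 0.01. The mean log2 ratio was 0.07 with a measurement SD of 0.20. Its 95% interval around this ratio ran from -0.33 to 0.46, so the direction of a change was not settled at this signal. The interval covers error within the array only.

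**Figure D2:**
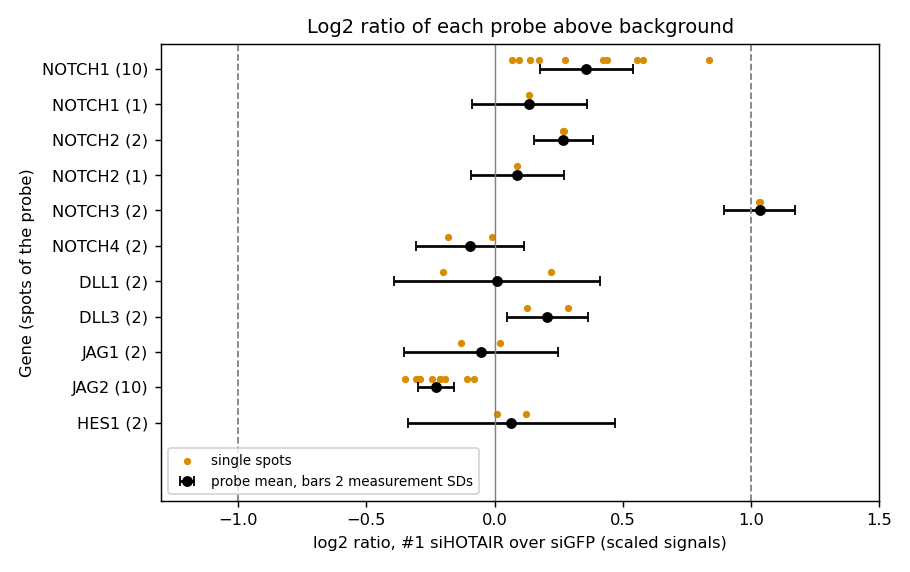
Log2 ratio of #1 siHOTAIR over siGFP for the 11 probes above background on both arrays, with the number of spots in brackets. Black points are probe means with bars of 2 measurement SDs, orange points single spots, and dashed lines 2-fold. NOTCH3 at 1.03 stands apart from the other probes, which lie between -0.23 and 0.36.

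**Figure D3:**
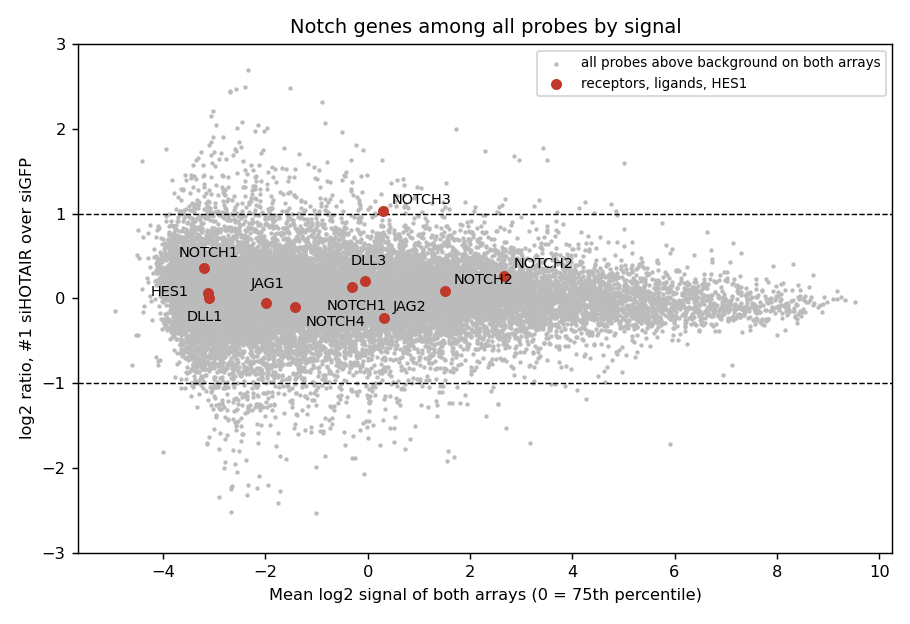
Log2 ratio against the mean log2 signal of both arrays (0 is the 75th percentile) for probes above background on both arrays (grey) and for those of the Notch receptors, ligands and HES1 (red), with dashed lines at 2-fold. The 5 grey probes beyond the axis are not drawn. NOTCH3 lies on the upper line, among the few grey points there, and the other labelled probes lie inside the grey cloud.

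The differences of NOTCH1 (0.14 to 0.36), NOTCH2, DLL3 and JAG2 are of a size common among all compared genes. Over those genes the median size of a log2 ratio, without its sign, was 0.24. By the brightest probe of each gene, 4 of the 9 genes (NOTCH2, NOTCH3, DLL3 and JAG2) differed by more than 2 measurement SDs, or 44.4%, where 52.7% of all compared genes did. At the signals of NOTCH2, JAG2 and DLL3 the central 80% of probes ran from -0.32 to 0.38, from -0.40 to 0.46 and from -0.43 to 0.47, and each of these genes lay inside its range. NOTCH3 lay outside its own, -0.40 to 0.46.

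The wider pathway was read from a list of 61 other genes, of which 51 were compared, each from its brightest probe. By that probe none of them was at least 2-fold higher, where 2.74% of all genes were, or at least 2-fold lower, where 3.41% were. Their median log2 ratio was 0.01. Of the 51 genes 27 differed by more than 2 measurement SDs, 13 of them upward. That is 52.9%, where 52.7% of all compared genes did. At 1.5-fold, 4 genes were higher (HEY1, ADAM10, TLE4 and MIB1), where 8.12% of all genes were, and 2 were lower (FURIN and HEYL), where 8.71% were.

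Of the targets of Notch other than HES1, 7 of 11 were compared. Read from their brightest probes, HEY1 was the only one of them above 0, where 6807 of all 13014 genes were. HEY1, a repressor of the HES and HEY family, was read from 2 spots with signals of 1475 and 1420.0 in #1 siHOTAIR-transfected cells and of 770.4 and 791 in siGFP-transfected cells. The spots of both arrays did not overlap, and the log2 ratio was 0.84, or 1.80-fold, with a measurement SD of 0.07. Among 2507 probes at this signal, 1.68% had a ratio as high or higher. NRARP, a feedback inhibitor of Notch, had signals of 5548 and 6417 and a log2 ratio of -0.26. HEYL, of the same family as HEY1, had the lowest ratio, -0.66, from a single spot with signals of 42.3 and 64.8. Its measurement SD was 0.28, and its ratio was -0.34 with normexp and -0.25 without background correction. CCND1 had a ratio of -0.47 from 10 spots and CDKN1A of -0.44 from 2, with measurement SDs of 0.03 and 0.11. Both stayed below 0 under all 12 alternatives, and both are named after their values were seen. The median of the 7 targets was -0.26. The sign of the smaller ratios depended on probe and scaling. HES6, named after its values were seen, had -0.04 on its brightest probe and 0.19, 0.10 and 0.05 on its others. With the median over the probes of a gene 2 of the 7 were above 0, and when scaled to spike-in RNA 3 were.

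The ubiquitin ligases and adaptors of endocytosis, which act on ligand and receptor traffic, were higher for 8 of 10 genes compared, with a median log2 ratio of 0.29, where 6807 of all 13014 genes were higher. Of the 10 genes 4 differed by more than 2 measurement SDs, where 52.7% of all compared genes did. MIB1, the ligase that lets ligand-bearing cells pull on Notch, had signals of 390.2 and 252 and the largest ratio, 0.59. NEURL1, another ligase for ligands, had a ratio of 0.01 and counts among the 8, and NEURL1B had the lowest, -0.49. The enzymes that attach sugars to Notch had a median of 0.12, with 3 of 5 higher, and the sign of this median turned to -0.11 with normexp and without background correction, with 2 of 5 higher. Among them the fringe enzyme LFNG had a ratio of 0.56 on its brighter probe and of -0.11 on the other, and RFNG had the lowest ratio, -0.25.

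The proteases had a median of -0.15, with 4 of 9 genes higher, and a median of 0.00 with 5 of 9 higher under normexp and without background correction. ADAM10, which makes the first cut after ligand binding, had a log2 ratio of 0.77 on its brighter probe, from 1 spot in row 68, and of -0.34 on its other probe with 2 spots, so its probes differ in direction. NCSTN and PSENEN, subunits of gamma-secretase, had ratios of -0.36 and -0.19. FURIN, which cuts the receptor during its maturation, was above background with siGFP only, and it is named after its values were seen. Its spots had signals of 27.6 and 39.9 with #1 siHOTAIR and 58.0 and 56.3 with siGFP. Its ratio was -0.83, or -0.66 with the dim side raised to the lowest signal above background, but -0.35 with normexp and -0.28 without background correction. In the nuclear complex, RBPJ, the DNA-binding partner of every Notch receptor, had signals of 5235 and 4852 and a ratio of 0.06. The coactivator MAML1 had the largest ratio there, 0.39 from 10 spots, and the acetyltransferase KAT2B the lowest, -0.53. Of the corepressors 5 of 10 were higher, with a median of 0.00, and this rested on the choice of probe and scaling. With the median over the probes of a gene 7 of 10 were higher with a median of 0.13, when scaled to spike-in RNA 7 with 0.14, and without the first 144 rows 7 with 0.10. Probes of these genes often differed. NCOR1 had ratios of 0.09 and 0.35 on probes above background on both arrays. On another probe of 1 spot, above background with #1 siHOTAIR only, it had 1.23, with signals of 57.4 and 23.7. That probe was 1.94-fold higher with the dim side raised to the lowest signal above background. HDAC2 had ratios of -0.28 and 0.54 and SPEN of -0.03 and 0.37. NCOR1, HDAC2 and SPEN are named after their values were seen. TLE4 had a ratio of 0.70 on its brighter probe and of -0.26 on the other, TLE1 had -0.57 and 0.21, and CTBP2 had -0.28 and 0.19. The noncanonical ligands DLK1 and DLK2 had ratios of -0.17 and 0.06.

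**Figure D4:**
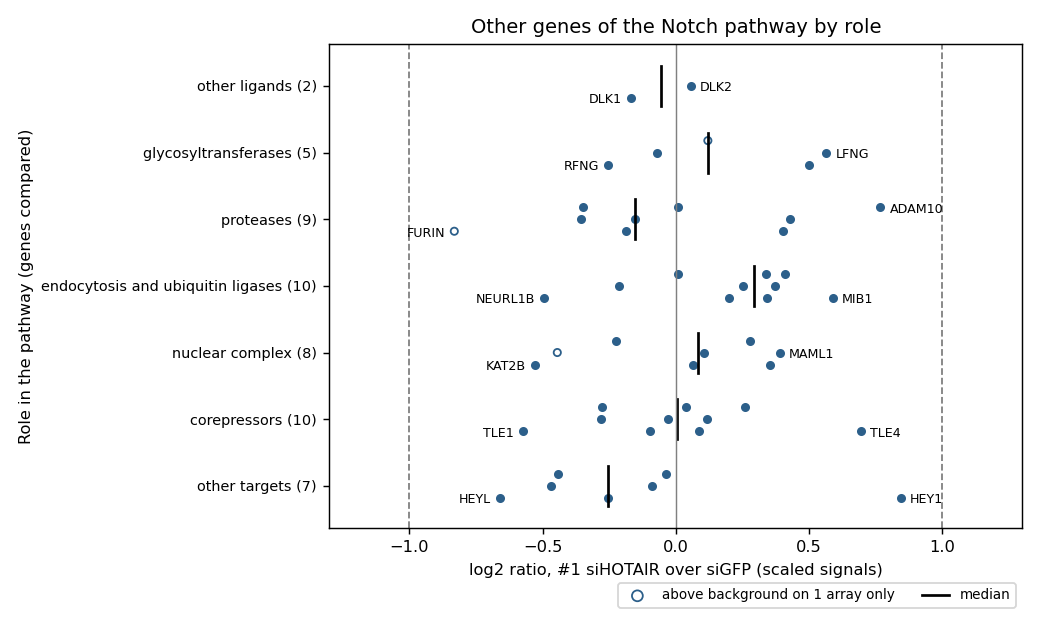
Log2 ratio of #1 siHOTAIR over siGFP for the 51 other Notch pathway genes compared, by role, each read from its brightest probe. Open circles are genes above background on 1 array only, drawn at their own signals, black bars are medians, and dashed lines mark 2-fold. No gene lies beyond the dashed lines, with HEY1 nearest to the upper one at 0.84 and FURIN nearest to the lower one at -0.83.

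The cell line was read for a list of genes used to describe SCLC, and their signals do not settle its identity. INSM1, POU2F3 and SYP were not well above background on either array. NEUROD1 was measured on both, with signals of 213 and 372 and a log2 ratio of -0.85 with a measurement SD of 0.11. YAP1, with 6522 and 6750, and REST, with 261 and 271, were measured on both as well, each with a ratio of -0.10. Per the paper, REST negatively regulates neurogenesis. CHGA was above background with #1 siHOTAIR only. It was 2.44-fold higher with the dim side raised to the lowest signal above background. NCAM1 passed with #1 siHOTAIR through 1 of its 2 spots, with signals of 67.8 and 9.57 against 7.08 and 7.33, and no fold is given. Of 5 epithelial markers KRT8 and KRT18 were above background on both arrays and CDH1 on neither. EPCAM passed with siGFP only, through 1 of 2 spots, with signals of 8.59 and 9.83 against 81.5 and 7.72. KRT19 passed with #1 siHOTAIR only, also through 1 of 2 spots, with signals of 35.5 and 43.7 against 31.3 and 23.3. These lie near the lowest signals well above background, 37.3 with #1 siHOTAIR and 28.6 with siGFP. The reference genes ACTB and GAPDH had log2 ratios of -0.02 and 0.00.

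**Figure D5:**
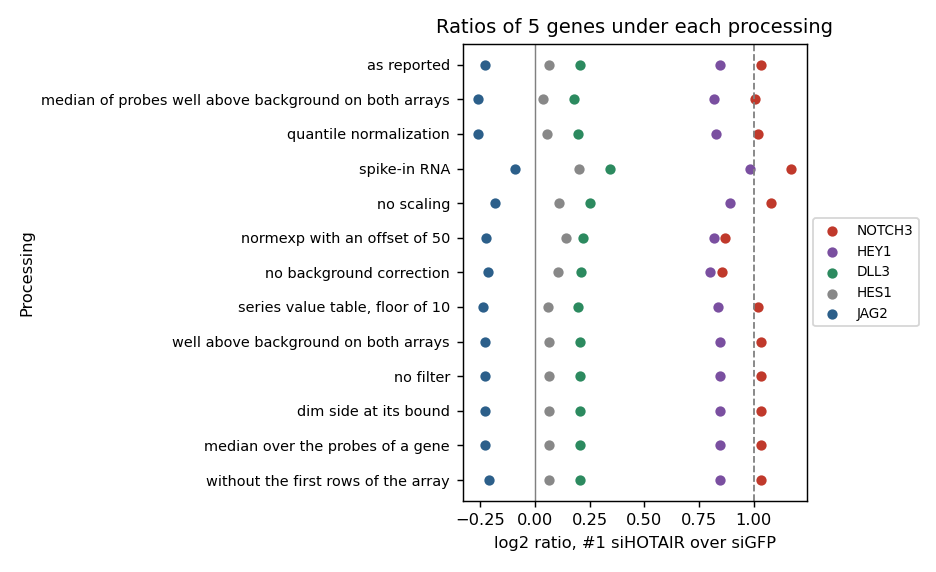
Log2 ratio of NOTCH3, HEY1, DLL3, HES1 and JAG2 under each way of processing the signals, with 0 and 2-fold (dashed) marked. NOTCH3 ranged from 0.85 to 1.17 and was under 2-fold only with normexp and without background correction, and the order of the 5 genes did not change.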

How the data were processed

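Total RNA of 1 #1 siHOTAIR-transfected and 1 siGFP-transfected culture was measured, and the sample labels gave the groups. Per the labels and file headers, the authors extracted the deposited intensity of each spot with Agilent Feature Extraction 10.10.1.1, and they did not normalize it between the arrays. A value table of the series was deposited as well and equals the background-subtracted intensity (largest difference 0).

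Control spots and spots marked as outliers were left out, log2 processed signals were set against the 75th percentile of each array, and replicate spots were then averaged (pandas 2.3.3). The measurement SD of a ratio was built from the median SD of repeated spots at 6 levels of signal on each array. It combines both arrays and shrinks with the number of spots of the probe. It is thus the error of the mean ratio, not the spread of single spots. RefSeq accessions, without their versions, were looked up in a GRCh38.p14 table, used for names and promoters only, and 58.5% of the probes were named. The median log2 ratio of probes that neither array detected was 0.34.

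With 1 array per group no test was possible. The genes, lists and alternatives were chosen with earlier results of these data known. Named pathway genes were, in each role, the brightest and those with the largest rise and fall among probes above background on both arrays, and any changed at least 2-fold. Alternatives were other scalings, normexp (limma 3.58.1, offset 50) on the median signal of the spot, no background correction, the value table with a floor of 10, other filters and thresholds, bounds for dim signals, the median over probes, and the array without its first 144 rows. The 2-fold call was tried on simulated data with planted changes well past 2-fold and error within the array only. That trial cannot speak for ratios near 2-fold or for differences between cultures. Of the list, CIR1 had no matched probe. 1 marker of the SCLC list is not reported here.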

Additional observations from a re-analysis of the deposited data

How the results depend on the processing

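The log2 ratio of NOTCH3 was above 0 under all 12 alternatives that give it, from 0.85 without background correction and 0.87 with normexp to 1.17 when scaled to spike-in RNA. The number of probes of the receptors, ligands and HES1 that changed at least 2-fold was 1, and it was 0 with normexp, without background correction and at a threshold of 3-fold. Scaling to the spike-in RNA moved the median of all compared genes from 0.02 to 0.16, that of the 9 compared receptors, ligands and HES1 from 0.07 to 0.20 and that of the other pathway genes from 0.01 to 0.15, since it adds the same amount to every gene. The number of other pathway genes changed was 0, with 1 (DTX3L, above background on neither array) without a filter and 6 at 1.5-fold. Leaving out the first 144 rows of the array removed the only spot of the brighter ADAM10 probe, in row 68. The ratio of ADAM10, 0.77 before, was then -0.33 from the spot of its other probe in row 288, a swap of probe. JAG1 had no spot left, and NOTCH3 kept a ratio of 1.03 from its remaining spot. For the causes of the remaining shifts no test was made. No paired analysis was possible because each group has 1 array, and no array could be left out. Signal over background limits DLL4, HES1, DLL1 and the dimmer NOTCH1 probe most.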
